A study of Mus musculus with 5 samples.

Results

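Myoc and Moxd1 are a pair of genes whose levels were higher in each of the 3 libraries labelled Esr1 conditional knockout than in both control libraries, and they are 2 of the 23857 genes in the deposited table. They were chosen on exactly that contrast, so their levels and differences are given as a description, with no test. RNA was sequenced in bulk from YFP-positive stromal cells of the oviduct (fallopian tube), sorted from young adult female mice, with 1 mouse behind each library. The controls are 2 mice, numbered 2 and 3, of genotype Pdgfra-Cre;R26Y. The 3 mice of the other group, numbered 1, 2 and 3, are Pdgfra-Cre;Esr1(fl/fl);R26Y and are called labelled knockouts or knockout mice 1, 2 and 3, so Cre and the reporter were shared by all 5 mice, and no mouse had floxed Esr1 without Cre. Cre is driven here from Pdgfra, a gene of mesenchymal cells, and deletes floxed Esr1 (estrogen receptor alpha) in cells that have used that promoter. Values are TPM, a transcript level scaled for gene length and to the same total in each library.

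Myocilin, the product of Myoc, is a secreted glycoprotein with an N-terminal coiled coil and a C-terminal olfactomedin domain, a beta-propeller that it shares with a family of mostly extracellular proteins. It is best known from the trabecular meshwork of the eye, where glucocorticoids induce it and where mutant protein that misfolds in the endoplasmic reticulum causes glaucoma. Moxd1 encodes a protein of the endoplasmic reticulum related to dopamine beta-hydroxylase, a copper- and ascorbate-dependent monooxygenase, and its substrate is not established.

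The regions around the annotated starts of both genes are shown because both were chosen for a higher level in the same libraries. Each window runs 5′ to 3′ from 250 bases before the start to 50 after it, from RefSeq on GRCm38.p6, and both members were found there. Capitals mark matches to the TATA box (TATAAA), to the CCAAT box of that spelling, to the GC box (GGGCGG) and to the E-box (CANNTG), searched on both strands. The Myoc window is chr1:162638900-162639199 and the Moxd1 window chr10:24223267-24223566, both on the plus strand.
Myoc: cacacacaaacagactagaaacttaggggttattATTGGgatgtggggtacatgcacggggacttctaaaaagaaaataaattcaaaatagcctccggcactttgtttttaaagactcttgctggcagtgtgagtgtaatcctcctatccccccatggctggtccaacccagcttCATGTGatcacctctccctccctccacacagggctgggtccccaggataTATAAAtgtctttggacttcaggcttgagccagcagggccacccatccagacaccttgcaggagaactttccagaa
Moxd1: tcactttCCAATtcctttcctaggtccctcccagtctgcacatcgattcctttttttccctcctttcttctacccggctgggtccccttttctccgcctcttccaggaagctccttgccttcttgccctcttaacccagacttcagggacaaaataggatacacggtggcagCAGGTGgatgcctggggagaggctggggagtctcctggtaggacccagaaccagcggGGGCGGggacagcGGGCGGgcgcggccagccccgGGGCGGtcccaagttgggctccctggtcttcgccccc

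These starts differed in base composition. The Myoc window had 48.7% G and C and 2 CpG dinucleotides, and a TATA box that began 26 bases before the start, which 13.6% of all 32851 windows of the same length hold somewhere. The Moxd1 window had 61.7% G and C and 13 CpG, with 3 GC boxes, a motif in 35.7% of all windows, and no TATA box. The median over all windows was 52.7% G and C and 7 CpG. Both held 1 E-box and 1 CCAAT box, found in 72.3% and 37.4% of windows. Neither held the estrogen response element half-site GGTCA, which is in 40.5% of windows on either strand. The glucocorticoid response element half-site AGAACA (19.0%) and the AP-1 site TGANTCA (7.81%) were also not among the letters of either window.

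In GENCODE M21 (GRCm38), Myoc lies on chromosome 1 from 162639155 to 162649693 with 1 transcript of 3 exons and 2074 exonic bases. Moxd1 lies on chromosome 10 from 24223517 to 24302790, with a main transcript of 12 exons and 3090 bases and a second of 2 exons and 431 bases. Myocos, a gene on the opposite strand, overlaps 93 exonic bases of Myoc, or 4.48%. No strand setting is given in the sources used here, so reads in that stretch cannot be assigned with certainty. Myocos itself was at 5.04 and 2.58 TPM in controls 2 and 3 against 1.42, 2.90 and 2.38 TPM in labelled knockouts 1, 2 and 3, where Myoc was high.

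Esr1 level did not separate the groups. It was 83.3 and 77.6 TPM in controls against 28.9, 85.0 and 170 TPM in labelled knockouts 1, 2 and 3, so only mouse 1 lay below both controls, and values per gene do not resolve the floxed exon. All directions here therefore refer to labels. Pdgfra was found in all 5 libraries, between 165 and 298 TPM, and the groups overlapped. The number of genes that reached 1 TPM was 19061 and 19432 in controls 2 and 3. It was 17148, 18190 and 15841 in labelled knockouts 1, 2 and 3, below both controls in each. TPM keeps no read total, so the depth behind a value is unknown.

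Myoc was several-fold higher in every library labelled knockout. Its level was 21.5 TPM in control mouse 2 and 28.9 TPM in control mouse 3. It was 131, 137 and 168 TPM in labelled knockouts 1, 2 and 3. The lowest of these was 4.54 times the highest control, so the groups stood far apart. The control mean was 25.2 ± 5.26 TPM (SD, n = 2), and the labelled knockouts averaged 146 ± 19.9 TPM (SD, n = 3), a ratio of 5.78. On the log2(TPM + 1) scale, where changes of weakly expressed genes look smaller than they are, the difference was 2.49 with a standard error of 0.20. By rank within each library, from the highest TPM down, Myoc moved from places 6456 and 4719 in the controls to 842, 923 and 757.

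Moxd1 was higher in the same libraries by a smaller factor. It was at 39.2 and 33.5 TPM in control mice 2 and 3. It was at 137, 124 and 145 TPM in labelled knockouts 1, 2 and 3. The lowest of these was 3.17 times the highest control. The control mean was 36.3 ± 4.02 TPM (SD, n = 2), and the labelled knockouts averaged 135 ± 10.3 TPM (SD, n = 3), a ratio of 3.73, and the log2 difference was 1.87 with a standard error of 0.16. Its rank went from 3652 and 4053 in the controls to 796, 1042 and 878.

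**Figure D1:**
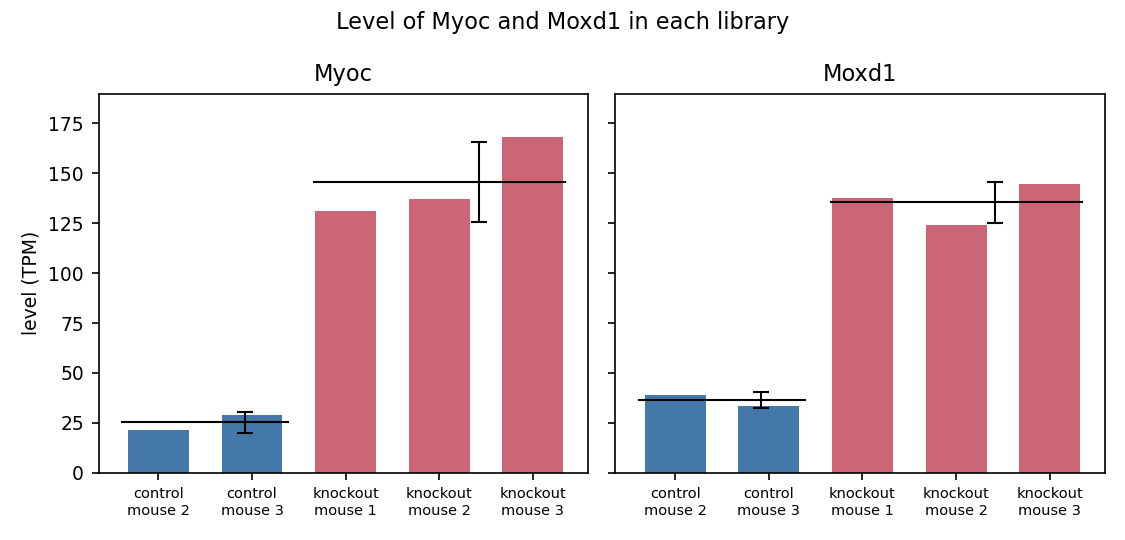
Level of Myoc (left) and Moxd1 (right) in TPM in each of the 5 libraries, with bars starting at 0, black lines at the group mean and whiskers of 1 SD (n = 2 controls, n = 3 labelled knockout). The 3 libraries labelled knockout sit at 131 to 168 TPM for Myoc and at 124 to 145 TPM for Moxd1, all above both controls.

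All 3 libraries labelled knockout lay above both controls for 11.9% of the 19292 genes tested, and 2 genes, 0.0104%, were higher past an adjusted p of 0.05 (limma, Benjamini-Hochberg over all genes tested), with 3 genes, 0.0156%, lower. The 2 higher genes are Myoc and Moxd1, and nothing is read from that count because it is how they were chosen. Among 12606 genes with a mean of at least 5 TPM, Myoc was 12th and Moxd1 44th by log2 difference. By the gap between the lowest library labelled knockout and the highest control they were 4th and 8th. Just before Myoc in that order stood Dlk1, with a highest control of 11.5 TPM and a lowest labelled knockout of 54.5 TPM, and just after it Tpd52l1, at 19.0 and 65.7 TPM. Around Moxd1 stood Plcxd3, at 8.27 and 28.5 TPM, and Frem1, at 4.75 and 16.1 TPM.

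A small spread among libraries is part of what set the members apart in that fit, so it too is a description. Among the libraries labelled knockout, Moxd1 had an SD of 0.11 on the log2 scale, where the median of 918 genes within 1.5 times its level was 0.27, and 12.5% had a smaller SD. Myoc had an SD of 0.19 there, with 30.3% of 813 such genes below it. In the controls Myoc varied more than most, with an SD of 0.29 against a median of 0.11, and 88.9% of 3973 genes of like level had a smaller SD. Moxd1 stood at 0.16 in the controls, with 66.8% of 3317 genes below it.

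The balance between the members shifted toward Myoc. The ratio of Myoc to Moxd1, both in TPM, was 0.548 and 0.863 in controls 2 and 3, against 0.955, 1.10 and 1.16 in labelled knockouts 1, 2 and 3. The groups did not overlap, but the ratio varied more between the 2 controls than among the 3 labelled knockouts. Set against Pdgfra, Myoc stood at 9.53% and 15.4% of its TPM in controls against 44.1%, 59.4% and 102% in knockout mice 1, 2 and 3. Moxd1 stood at 17.4% and 17.9% and then at 46.1%, 53.8% and 87.8%. Both shares were highest in knockout mouse 3, where Pdgfra was lowest at 165 TPM. In bulk RNA, more cells of a type and more RNA per cell cannot be told apart.

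No other tested olfactomedin-domain gene had a log2 difference above 0.76. Of 12 such genes besides Myoc, 11 reached 1 TPM in at least 2 libraries and were tested, and 0 passed an adjusted p of 0.05 in either direction (limma, with 0 also at an unadjusted p under 0.05, against 13.6% of all genes tested, 3.7% higher and 9.87% lower). Their median log2 difference was 0.07, beside -0.02 for all genes tested, and it was -0.07 without knockout mouse 1. All 3 libraries labelled knockout lay above both controls for 1 of the 11 and below both for 1, where the background was 11.9% and 21.9%. Without knockout mouse 1, Adgrl3 was higher with an adjusted p of 0.0362 (limma), in a fit that called 5.35% of genes higher. With knockout mouse 2 or mouse 3 left out instead, 0 genes were higher past the threshold. Mouse 1 was the only labelled knockout with Esr1 below both controls. The fit without it thus set the controls against mice 2 and 3, at 85.0 and 170 TPM of Esr1. That limit holds for every result below given without knockout mouse 1.

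Olfml3, a secreted matrix glycoprotein, was the most abundant of the family. It was at 347 and 253 TPM in controls 2 and 3 against 718, 270 and 199 TPM in labelled knockouts 1, 2 and 3. Only knockout mouse 1 stood out, and the groups overlapped (log2 difference 0.19, standard error 0.51, limma adjusted p 0.873). Olfml1 stayed between 45.4 and 60.2 TPM in all 5 libraries, and Olfml2b between 34.5 and 65.6 TPM. Olfml2a was at 22.0 and 36.9 TPM in controls against 15.9, 24.2 and 16.0 TPM in the labelled knockouts, with a log2 difference of -0.61 (standard error 0.29, limma adjusted p 0.402). Photomedins, as the products of Olfml2a and Olfml2b are called, are secreted.

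The noelins Olfm1 to Olfm3 are known mainly from neurons. Olfm1 was at 28.4 and 24.7 TPM in controls against 20.8, 18.6 and 21.0 TPM in the labelled knockouts, below both controls in each but without passing (log2 difference -0.38, standard error 0.17, limma adjusted p 0.387). Olfm2 varied widely, from 2.59 TPM in knockout mouse 1 to 43.3 TPM in knockout mouse 3, around 24.1 and 14.5 TPM in the controls, so no direction can be drawn. Olfm3 did not exceed 0.547 TPM. Olfm4, an intestinal stem cell marker, did not exceed 1.83 TPM, and Olfm5, which was added after its values were seen, did not exceed 1.06 TPM.

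Gliomedin (Gldn), which clusters sodium channels at nodes of Ranvier, was the family member above both controls in all 3 libraries labelled knockout. It was low throughout, at 0.63 and 0.71 TPM in controls against 1.60, 0.99 and 3.36 TPM in labelled knockouts 1, 2 and 3 (log2 difference 0.76, standard error 0.39, limma adjusted p 0.424). The latrophilins Adgrl1, Adgrl2 and Adgrl3 are adhesion receptors with an olfactomedin domain. Adgrl1 ranged from 21.7 to 33.9 TPM and Adgrl2 from 31.9 to 44.7 TPM, with overlapping groups. Adgrl3 was at 8.48 and 9.48 TPM in controls against 5.85, 17.7 and 17.2 TPM in labelled knockouts 1, 2 and 3, so mouse 1 lay on the other side of the controls from mice 2 and 3.

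The relatives of Moxd1 are the other copper type II monooxygenases. Pam, the enzyme that amidates peptide hormones, was the most abundant, at 188 and 168 TPM in controls against 210, 182 and 186 TPM in the labelled knockouts (log2 difference 0.11, standard error 0.16, limma adjusted p 0.753). Dbh, which makes noradrenaline from dopamine, was at 3.33 and 2.73 TPM and then at 1.56, 2.26 and 0.89 TPM (log2 difference -0.68, standard error 0.32, limma adjusted p 0.396). Moxd2 did not exceed 0.857 TPM and was not tested. Of the 2 tested relatives, 0 passed (limma, 0 at an unadjusted p under 0.05, against 13.6% of all genes tested).

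**Figure D2:**
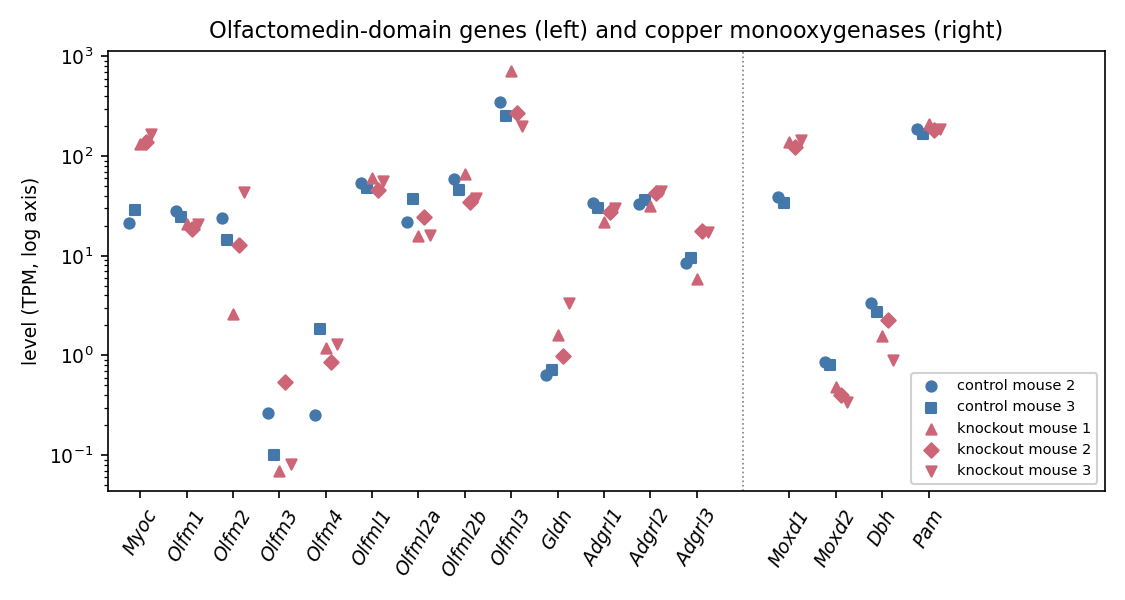
Level in TPM, on a log axis, of the olfactomedin-domain genes (left of the dotted line) and the copper type II monooxygenases (right) in each of the 5 libraries (blue, controls; red, libraries labelled knockout). Myoc and Moxd1 show red points well above the blue ones, while Pam stays between 168 and 210 TPM and Olfml3 overlaps between the groups.

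Copper handling and secreted copper enzymes were examined as the setting in which a copper monooxygenase would work. Of 20 genes tested, 0 passed (limma). At an unadjusted p under 0.05, 1 was higher and 3 lower (limma), against 3.7% and 9.87% of all genes tested. The median log2 difference was -0.08. Ceruloplasmin (Cp), a copper ferroxidase, was at 49.97 and 65.4 TPM in controls against 297, 145 and 70.6 TPM in labelled knockouts 1, 2 and 3 (log2 difference 1.33, standard error 0.53, limma adjusted p 0.355). Its relative Heph was at 120 and 57.2 TPM and then at 25.3, 39.7 and 30.2 TPM (log2 difference -1.38, standard error 0.34, limma adjusted p 0.200). The ferroxidases thus lay on opposite sides of the controls. The most abundant members were Mt1 and Mt2, which bind copper and zinc, and Sod1. Mt1 and Mt2 overlapped between groups, and Sod1 was at 485 and 537 TPM and then at 553, 776 and 889 TPM (limma adjusted p 0.410). Without knockout mouse 1 the list median was -0.32, with 2 genes higher, Sod1 among them at an adjusted p of 0.0447 (limma), and 1 lower, in a fit that called 5.35% of all genes higher and 2.63% lower.

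Genes whose products are reported to bind myocilin split in both directions. Of 17 tested, 0 passed (limma). At an unadjusted p under 0.05, 4 were higher and 4 lower (limma), against 3.7% and 9.87% of all genes tested. This list and the others were chosen with earlier results of these data known, so such counts are a description. The median log2 difference was -0.14, and it was 0.03 without control mouse 2. Frzb, a secreted antagonist of Wnt signalling, came nearest to passing. It was at 33.1 and 23.4 TPM in controls against 4.08, 4.76 and 7.68 TPM in labelled knockouts 1, 2 and 3 (log2 difference -2.19, standard error 0.30, limma adjusted p 0.0968), and it passed without knockout mouse 1 at an adjusted p of 0.0200. Fibronectin (Fn1) was at 898 and 675 TPM and then at 262, 440 and 467 TPM (log2 difference -1.04, standard error 0.30, limma adjusted p 0.239).

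Chaperones of the endoplasmic reticulum handle secreted proteins, and Hsp90b1 (Grp94) is known for its part in the clearance of mutant myocilin. Hsp90b1 was at 581 and 660 TPM in controls against 786, 1177 and 990 TPM in the labelled knockouts (log2 difference 0.65, standard error 0.23, limma adjusted p 0.327), and passed without knockout mouse 1 at an adjusted p of 0.0426. Hspa5 (BiP) overlapped between the groups (log2 difference 0.22, limma adjusted p 0.690), as did the matrix protein Sparc (log2 difference -0.15, limma adjusted p 0.803). Without knockout mouse 1, 3 of the 17 were higher and 1 lower past the threshold, in a fit that called 5.35% and 2.63% of all genes.

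Other genes known from glaucoma and the trabecular meshwork were taken as the tissue setting in which myocilin is best studied. Of 15 tested, 0 passed (limma). At an unadjusted p under 0.05, 3 were higher and 2 lower (limma), against 3.7% and 9.87% of all genes tested. The median log2 difference was -0.16. Angptl7, a secreted angiopoietin-like protein of the meshwork and cornea, was at 1.99 and 2.81 TPM in controls against 10.9, 10.5 and 7.57 TPM in labelled knockouts 1, 2 and 3 (log2 difference 1.64, standard error 0.26, limma adjusted p 0.118). It passed without knockout mouse 1, at an adjusted p of 0.0323. Cyp1b1, a cytochrome mutated in congenital glaucoma, was at 86.2 and 101 TPM and then at 382, 226 and 123 TPM (log2 difference 1.23, standard error 0.43, limma adjusted p 0.317).

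Lower values stood beside these in the same list. Cav1, the caveolar coat protein, was at 256 and 159 TPM in controls against 94.4, 117 and 83.2 TPM in the labelled knockouts (log2 difference -1.05, standard error 0.25, limma adjusted p 0.198). Efemp1 and Thbs1, matrix proteins, were below both controls in all 3, with log2 differences of -0.76 and -0.42 (limma adjusted p 0.380 and 0.368), and Efemp1 passed without knockout mouse 1 at 0.0382. Mgp, at 1743 to 3310 TPM the most abundant, overlapped between the groups. Of the 15, only Angptl7 was higher and only Efemp1 lower past the threshold without knockout mouse 1. That fit called 5.35% of all genes higher and 2.63% lower.

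Glucocorticoid-responsive genes were examined because Myoc is induced by glucocorticoids in the eye. Of 18 tested, 0 passed (limma). At an unadjusted p under 0.05, 2 were higher and 3 lower (limma), against 3.7% and 9.87% of all genes tested. The median log2 difference was -0.05. Hsd11b1, which regenerates active glucocorticoid inside cells, was at 42.2 and 31.2 TPM in controls against 91.4, 78.4 and 66.2 TPM in labelled knockouts 1, 2 and 3 (log2 difference 1.08, standard error 0.21, limma adjusted p 0.160). It passed without knockout mouse 1, at an adjusted p of 0.0350. Dusp1, a phosphatase gene induced by glucocorticoids and by stress, was at 671 and 776 TPM in controls against 710, 342 and 293 TPM in labelled knockouts 1, 2 and 3 (log2 difference -0.80, limma adjusted p 0.399), and passed without mouse 1 at 0.0173. Mt1 and Mt2, which the copper list also holds, did not pass. Without knockout mouse 1, 2 of the 18 were higher and 3 lower past the threshold, against 5.35% and 2.63% of all genes in that fit, with a list median of -0.24.

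The genes beside each member on the chromosome were compared in the order of the RefSeq table for GRCm38.p6, with 5 named protein-coding genes on each side. At Myoc, 0 of 10 neighbours passed (limma; 3 higher and 0 lower at an unadjusted p under 0.05, against 3.7% and 9.87% of all genes tested). Their median log2 difference was 0.39, beside -0.02 for all genes tested. All 3 libraries labelled knockout lay above both controls for 5 of them, against 11.9% of all genes. The share was 16.7% among genes with a mean of at least 5 TPM. The nearest neighbours did not have a difference of the size of Myoc's. Vamp4, a vesicle fusion protein whose gene ends 40.1 kb before Myoc, ranged from 18.6 to 26.3 TPM (log2 difference 0.30, standard error 0.18, limma adjusted p 0.470). Prrc2c, whose gene begins 22.1 kb after Myoc, ranged from 98.3 to 116 TPM, with a log2 difference of 0.00 (standard error 0.17, limma adjusted p 0.987). Eef1aknmt and Myocos overlapped between the groups, and Dnm3 and Pigc had log2 differences of 0.31 and 0.48 (limma adjusted p 0.547 and 0.354).

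The larger values at this locus were those of flavin-containing monooxygenases, drug-metabolising enzymes clustered beyond Prrc2c. Fmo1, 180 kb from Myoc, was at 20.1 and 27.0 TPM in controls against 109, 76.0 and 83.3 TPM in labelled knockouts 1, 2 and 3. Its log2 difference of 1.88 (standard error 0.22) did not pass at a limma adjusted p of 0.0858, and passed without knockout mouse 1 at 0.0140. Fmo2, 225 kb away, was at 83.6 and 160 TPM and then at 521, 266 and 307 TPM (log2 difference 1.59, standard error 0.37, limma adjusted p 0.197). Fmo4, the first gene of the cluster, was at 1.80 and 3.17 TPM and then at 1.86, 6.77 and 4.37 TPM, with overlapping groups. Suco, on the other side, was higher in mice 2 and 3 alone, at 87.1 and 103 TPM, where the controls were at 44.0 and 47.5 TPM and mouse 1 at 41.4 TPM. It passed without mouse 1 at an adjusted p of 0.0183 (limma). In that fit 2 of the 10 neighbours, Fmo1 and Suco, were higher past the threshold and 0 lower. Of all genes, it called 5.35% higher and 2.63% lower.

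At Moxd1, 8 of the 10 neighbours were tested and 0 passed (limma). At an unadjusted p under 0.05, 1 was higher and 0 lower (limma), against 3.7% and 9.87% of all genes tested. Their median log2 difference was 0.18, and it was -0.02 without knockout mouse 3. Ccn2, a matricellular protein also known as connective tissue growth factor, begins 293 kb after Moxd1. It was at 23.7 and 35.1 TPM in controls against 42.5, 92.4 and 67.6 TPM in labelled knockouts 1, 2 and 3 (log2 difference 1.13, standard error 0.34, limma adjusted p 0.261), and passed without mouse 1 at 0.0283. Stx7, a syntaxin of late endosomes whose gene ends 34.6 kb before Moxd1, was at 68.5 and 63.1 TPM and then at 69.9, 92.7 and 107 TPM (log2 difference 0.42, standard error 0.21, limma adjusted p 0.419), with an adjusted p of 0.0469 without mouse 1. The other neighbours had smaller differences. Enpp1, Enpp3 and Med23 had log2 differences of 0.15, -0.07 and 0.21. Arg1 was at 9.99 and 13.4 TPM in controls against 4.51, 22.2 and 29.1 TPM in labelled knockouts 1, 2 and 3. Its groups overlapped (log2 difference 0.32, limma adjusted p 0.835). Its adjusted p was 0.0398 (limma) without mouse 1, the library that lay below both controls. Without knockout mouse 1, 3 of the 8 tested neighbours were higher past the threshold and 0 lower. That fit called 5.35% of all genes higher and 2.63% lower. The trace amine receptor genes Taar8a, Taar8b, Taar8c and Taar9 did not exceed 2.92 TPM, and Taar8b and Taar8c fell under the filter on low values.

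**Figure D3:**
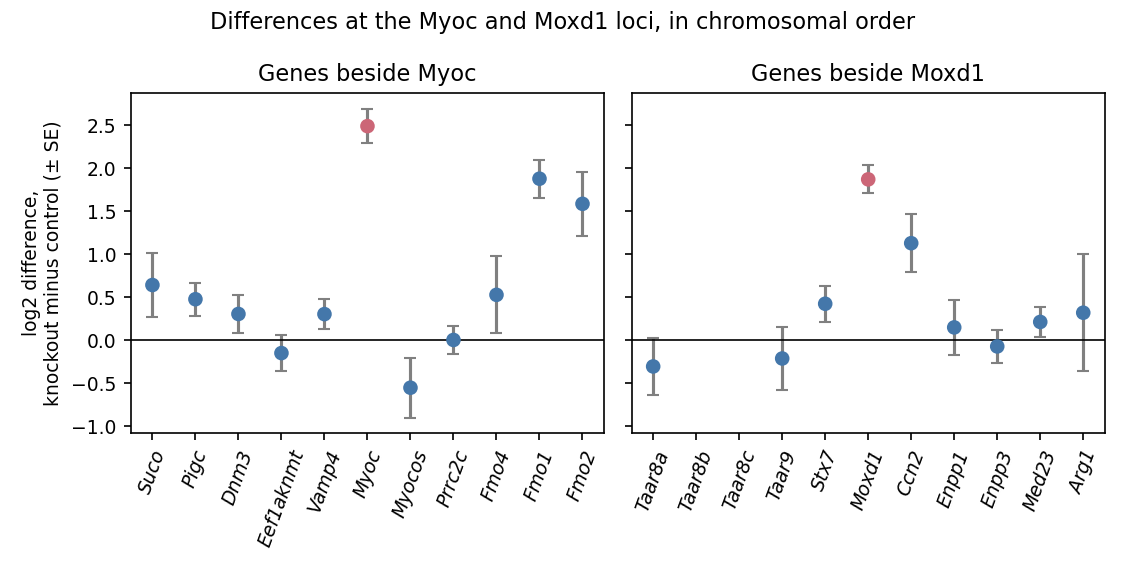
Log2 difference of each tested gene (libraries labelled knockout minus controls on the log2(TPM + 1) scale, whiskers of 1 standard error) in chromosomal order around Myoc (left) and Moxd1 (right), with members in red and untested genes left blank. Myoc stands at 2.49, with Vamp4 at 0.30, Myocos at -0.55 and Prrc2c at 0.00 beside it and Fmo1 and Fmo2 at 1.88 and 1.59 further along, and Moxd1 stands at 1.87 with Ccn2 next at 1.13.

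Genes with the nearest profile were found by the root mean square distance between gene-centred log2(TPM + 1) values over the 5 libraries, among genes with a mean of at least 5 TPM and an informative symbol. They share the libraries with the members and resemble a pattern that was itself chosen, so they are listed without a test. Nearest to Myoc were Frem1 (distance 0.27), a basement membrane protein, Tpd52l1 (0.28), Hhip (0.37), an inhibitor of hedgehog ligands, Slc38a5 (0.37), an amino acid transporter, Moxd1 (0.38), Prkar2b (0.38), a regulatory subunit of protein kinase A, Fmo1 (0.39) and the matrix protein Thbs4 (0.40). Myoc lay 1.23 from a flat profile. Frem1 was at 2.99 and 4.75 TPM in controls against 16.1, 26.6 and 21.3 TPM in the labelled knockouts, and Tpd52l1 at 19.0 and 18.6 TPM and then at 65.7, 106 and 133 TPM. Both, like Myoc, were lower in knockout mouse 1 than in mice 2 and 3.

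Nearest to Moxd1 were the linker histone gene H1f3 (0.21), Tnni3 (0.21), Fmo1 (0.25), Serpine2 (0.26), a serine protease inhibitor, Smoc2 (0.28), a matricellular protein, Sorcs2 (0.29), Wfikkn2 (0.29), a secreted inhibitor of growth and differentiation factors, and Egflam (0.30), a matrix protein. Moxd1 lay 0.92 from a flat profile, and Myoc was 22nd in the order from Moxd1. Serpine2 was at 37.7 and 40.9 TPM in controls against 98.3, 132 and 128 TPM in the labelled knockouts. Smoc2 was at 44.4 and 42.4 TPM and then at 102, 101 and 143 TPM. Reads of H1f3 may be split with other, nearly identical histone genes, which makes its level uncertain. Fmo1 was the only gene among the 8 nearest to each member.

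These neighbourhoods depended on single libraries. Of the 8 genes, 1 was kept for Myoc and 0 for Moxd1 when knockout mouse 1 was left out, where Fmo1 came 44th and 74th in order. The place of Moxd1 in the order from Myoc ran from 1 without control mouse 2 to 43 without knockout mouse 1. The place of Myoc in the order from Moxd1 ran from 1 without control mouse 2 to 151 without control mouse 3 and 315 without knockout mouse 1. Without knockout mouse 3, 2 were kept for each, and without knockout mouse 2, 4 for Myoc and 5 for Moxd1. Without control mouse 2, 3 and 6 were kept, and without control mouse 3, 3 and 4. With pseudocounts of 0.1 and 5, 7 and 6 were kept for each.

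**Figure D4:**
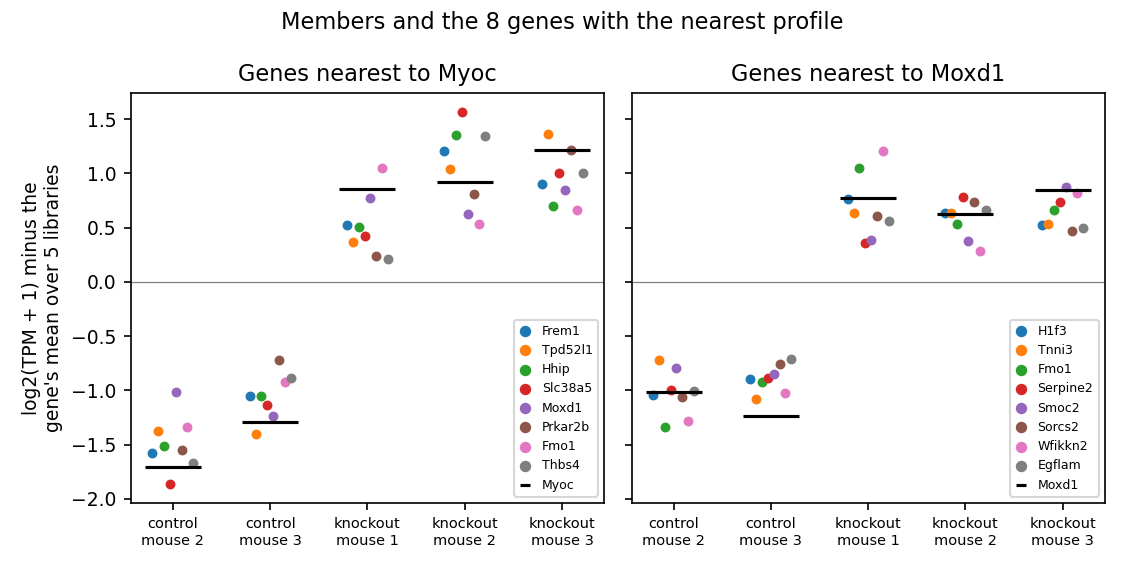
Gene-centred log2(TPM + 1) of the 8 genes with the nearest profile (coloured points) and of the member (black dashes) in each library, for Myoc (left) and Moxd1 (right). All plotted genes are below their own mean in both controls and above it in the 3 libraries labelled knockout, as the choice by likeness requires.

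Cell types that the sort could hold were described by the summed TPM of marker lists. Stromal fibroblast markers were the most abundant in sum, from 13852 to 26034 TPM. The sum was at 0.77, 0.59 and 0.68 of the control mean in knockout mice 1, 2 and 3, below both controls. All 15 markers had a mean of at least 5 TPM. Of them, 7 lay below both controls in all 3, against 12.9% of genes at that level and 21.9% of all genes tested. Another 7, Pdgfra and Dcn among them, overlapped, and Pi16 lay above both. The immune sum was also below both controls, at 0.66, 0.42 and 0.30 of the control mean. Lyz2 was the largest part of it in each library, at 1546 and 2125 TPM in controls against 1163, 738 and 552 TPM. Of the 8 immune markers, 7 lay below both controls in all 3, beside the same shares of genes, and Cd3e overlapped. Epithelial markers were at 0.69 of the control mean in knockout mouse 1 and at 3.94 and 4.24 in mice 2 and 3. The oviduct secretory gene Ovgp1 made up 74.0% to 90.2% of that sum in each library, and without it, a sum added after the values were seen, the ratios were 0.850, 1.83 and 2.29. Myoc was at 5.21, 5.44 and 6.68 times its control mean in the same libraries and Moxd1 at 3.78, 3.42 and 3.98 times. The epithelial sum lay below both controls in mouse 1 and above both in mice 2 and 3.

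Schwann and glial markers, examined because members of the olfactomedin family are known from nerve, ran from 53.7 to 210 TPM in sum, and 4 of 9 tested lay below both controls and 2 above, against 21.9% and 11.9% of all genes tested. Mesothelial sums overlapped between the groups, but 5 of the 7 mesothelial markers, Msln, Upk3b, Upk1b, Lrrn4 and Gpm6a, lay below both controls in all 3 labelled knockouts, against 21.9% of all genes tested. All 7 had a mean of at least 5 TPM, and the share was 12.9% among genes at that level. Wt1 lay above both, and Krt19, which epithelial cells also express, overlapped. The median log2 difference of these 7 was -0.95, the same as for immune markers. Endothelial, adipocyte and smooth muscle and pericyte sums overlapped, as the Schwann and glial sums did. Skeletal muscle sums, which were low throughout at 45.4 to 101 TPM, were below both controls, at 0.94, 0.59 and 0.47 of the control mean. In mouse 1 the sum was 90.1 TPM, just under the 90.6 TPM of control mouse 3. Des, which the smooth muscle list also holds, was the largest part of the sum in each library. It overlapped between the groups, at 65.8 and 57.1 TPM in controls against 68.0, 34.7 and 31.0 TPM. No list had a sum of 0 in any library. In the fit to all 5 libraries 0 marker genes passed, with 24 of 80 tested at an unadjusted p under 0.05 (limma), against 13.6% of all genes tested. Of these 24, Pi16 and Wt1 were higher and the rest lower, where 3.7% of all genes tested were higher and 9.87% lower. The part of cell composition in the levels of Myoc and Moxd1 was not tested.

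**Figure D5:**
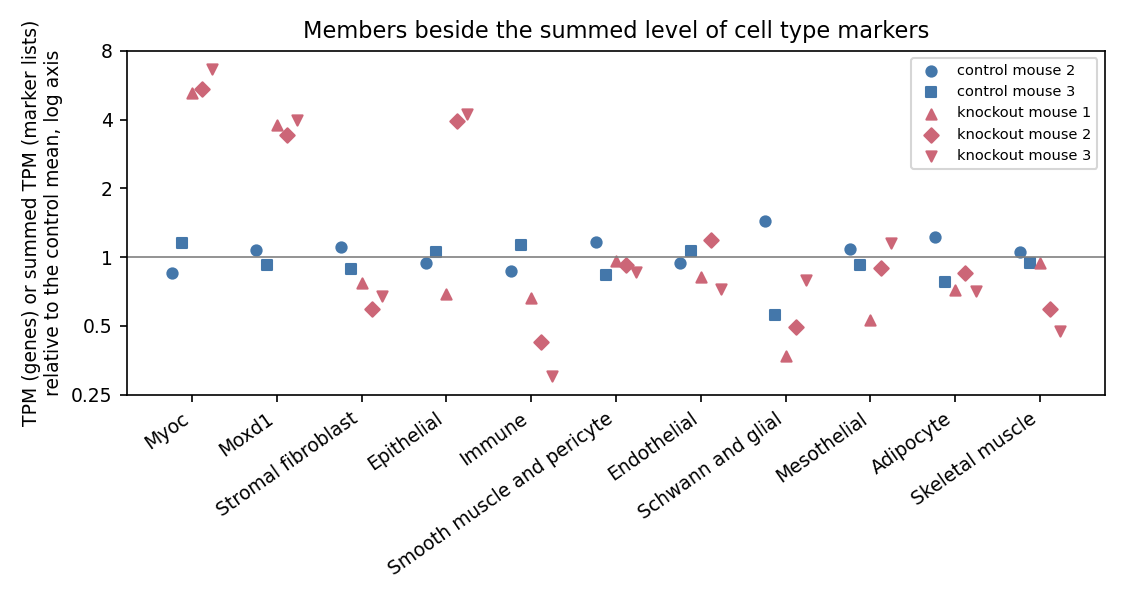
Level of Myoc and Moxd1 (TPM) and summed TPM of 9 marker lists in each library, relative to the mean of the 2 controls, on a log axis (blue, controls; red, libraries labelled knockout). Myoc and Moxd1 lie above 1 in all 3 red points, epithelial markers in mice 2 and 3 only. Stromal, immune, smooth muscle and pericyte, Schwann and glial, adipocyte and skeletal muscle sums lie below 1 in all 3. Of these, only the stromal, immune and skeletal muscle sums lie below both controls in all 3. Endothelial and mesothelial red points lie on both sides of 1.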

How the data were processed

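The data are TPM per gene in 5 libraries of sorted oviductal stromal cells, 2 controls and 3 labelled Esr1 conditional knockout, each from 1 mouse. Titles gave each library's group and number. Libraries were made with a low-input SMARTer kit, per the labels' protocols. The authors deposited TPM that sum to 1000000 in each library. The table's name includes STAR, and mm10 is the build per the submitters' processing notes. The gene counter, annotation, versions and filters are not given in the sources used here. Of the listed symbols, 99.2% are in RefSeq for GRCm38.p6, which gave gene order and promoters. TPM keeps no read total, so no counting interval can be given.

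On the log2(TPM + 1) scale, limma 3.58.1 under R 4.3.3 was used to fit each gene with a term for genotype alone, with the variance moderated by eBayes along its trend with the mean. Genes with at least 1 TPM in at least 2 libraries were tested, two-sided, and p-values were adjusted by Benjamini-Hochberg over all 19292, with a threshold of 0.05. The fit was tested on simulated data. Leaving out a control leaves 1, which is then assumed to vary like the other group. Sums and promoters were computed in Python 3.11.15 with pandas 2.3.3.

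The members and lists were chosen with earlier results of these data known. The genes named are the members, both gene families, 5 chromosomal neighbours on each side, the 8 nearest profiles, and from each context list the 3 most abundant genes and those without overlap and with an absolute log2 difference of at least 1. Cell type lists are given as sums, with some markers named beside them. The alternatives were pseudocounts of 0.1 and 5, filters, scalings, library weights, variance models, a replicate block and leaving out each library. Protein sequences were not used here.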

Additional observations from a re-analysis of the deposited data

How the results depend on the processing

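The log2 differences of Myoc and Moxd1 moved by less than 1 SD between replicates in all 15 alternatives, from 2.28 to 2.70 and from 1.75 to 1.98. The counts of all genes past the threshold, 2 higher and 3 lower, were less stable. Both were 0 with a pseudocount of 0.1 (unadjusted p under 0.05 for 715 higher and 1518 lower) and in genes of mean 5 TPM or more (643 and 746). There was 1 higher gene when low values were not filtered and 0 with quantile normalization (1195 before adjustment), with median-of-ratios scaling (1290) and without the variance trend (555). The lower genes numbered 5 without Rpph1 and Rn45s, a pair of abundant non-coding RNAs. Library weights gave 260 higher and 396 lower. Over the fits that left out 1 library, higher genes ranged from 0 to 1022 and lower from 0 to 502, with the highest counts without knockout mouse 1. In the unadjusted split, 713 higher and 1904 lower became 1195 and 1378 with quantile normalization and 1290 and 1726 with median-of-ratios scaling. The cause was not tested.

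Mouse number as a replicate block gave 1165 higher and 693 lower genes. Only mice 2 and 3 have a partner and inform this fit. Across genes, same-numbered libraries deviated from their group means with correlations of -0.06 (mouse 2) and -0.07 (mouse 3). The deviations of the 2 controls mirror each other, so these are not independent checks. The titles do not say whether the numbers mark pairs, and the correlations cannot decide it. Under the block the log2 difference was 0.57 for Esr1, 0.33 for Olfm2, -0.010 for Olfml1, -0.35 for Olfml3 and -0.074 for Pdgfra, all reversed in sign.

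None of the other sign changes passed the threshold. With library weights Esr1 was 0.15, Olfml1 -0.042, Olfml3 -0.079 and Taar9 0.021. With quantile normalization Olfml1 was -0.060, Prrc2c -0.13, Taar8a 0.19 and Taar9 0.33. Without Rpph1 and Rn45s Prrc2c was -0.057. Leaving out 1 library gave ranges across 0 for Esr1 (-0.68 to 0.57), Pdgfra (-0.074 to 0.35), Olfm2 (-1.48 to 0.33), Olfm4 (-0.43 to 0.75), Olfml1 (-0.010 to 0.19) and Olfml3 (-0.35 to 0.57). The same held for Eef1aknmt (-0.31 to 0.0065), Prrc2c (-0.12 to 0.12), Enpp1 (-0.033 to 0.46), Enpp3 (-0.21 to 0.061) and Arg1 (-0.15 to 1.07). Of 994 alternative values for 67 named genes, 881 kept direction and side of the threshold, 83 newly passed and 30 changed sign. Of the newly passing values 33 came under the block, 29 without knockout mouse 1 and 21 with library weights. The alternatives for the nearest profiles were chosen after the data were seen. With 2 controls and an unknown depth, the lowest values, such as those of Olfm3, Moxd2 and the Taar genes, are the least precise.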

Other observations

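Of genes with a mean of at least 5 TPM, 3 had a wider gap than Myoc between the highest control and the lowest library labelled knockout, and they were named after their values were seen. C7, a terminal complement component, was at 34.4 and 26.03 TPM in control mice 2 and 3. It was at 1949, 472 and 228 TPM in labelled knockouts 1, 2 and 3, so these libraries differed from each other far more than they did for Myoc or Moxd1. Cyp17a1, the steroid 17-hydroxylase and lyase, was at 2.34 and 5.72 TPM and then at 35.2, 72.4 and 38.2 TPM. Dlk1, a non-canonical Notch ligand of progenitor and stromal cells, was at 4.55 and 11.5 TPM and then at 64.2, 54.5 and 93.7 TPM. Their log2 differences were 4.27, 3.31 and 3.07 with standard errors of 0.79, 0.41 and 0.38, against 0.20 for Myoc and 0.16 for Moxd1. They were chosen for this contrast, so no test is given.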
